A study of Danio rerio with 2 samples.

Results

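The chemokine system was followed across the cells of the adult zebrafish pituitary. Members were all gene symbols of the files that begin with *ccl*, *cxcl*, *xcl*, *ccr*, *cxcr*, *xcr* or *ackr* and a digit, in either case, with at least 5 UMIs (unique molecular identifiers, each counting 1 captured RNA molecule) over both matrices. Of 61 such symbols among 32057 features, 47 qualified: 12 CXC ligands, 18 CC ligands, 12 receptors and 5 atypical receptors. The choice used the total count alone and no contrast between cells or fish. The 34 members with at least 50 UMIs are described with their values (9 CXC ligands, 15 CC ligands, 7 receptors and 3 atypical receptors) and the other 13 by count and range.

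Chemokines are small secreted proteins that guide moving cells. They act on receptors coupled to inhibitory G proteins, while atypical receptors bind chemokines without that coupling and remove them from the surroundings. Well-known pairs are Cxcl12 with Cxcr4 and with the atypical receptor Ackr3, Ccl25 with Ccr9, Ccl19 with Ccr7, and Cxcl11 with Cxcr3. Many zebrafish members lie in tandem arrays that have no one-to-one mammalian counterpart, and no role is given here for those.

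The study removed both cholecystokinin genes to ask how this peptide acts on the pituitary and gonads. The groups were *cck1*-/-;*cck2*-/- males made by CRISPR/Cas9 (labelled CCK1/2-KO, the mutant here) and WT males, all 6 months old, with pituitaries of 30 fish per group given in the methods and 1 droplet library per group. The mutant carries the deletions in the whole body from fertilization on. With 1 library on each side there is no replicate, so no test and no p-value is given. Intervals are exact at 95% and cover counting error only, and a difference between fish cannot be told apart from a difference between libraries.

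The mutant matrix held 3755 barcodes and 15910570 UMIs, and the WT matrix 5236 barcodes and 22358017 UMIs, with medians of 941 and 864 UMIs per barcode. After filtering, 3452 mutant and 4858 WT cells were kept. No barcode had under 500 UMIs, and 11 barcode sequences occurred in both libraries. The cholecystokinin gene listed as *ccka* had 14 UMIs in 12 mutant barcodes and 144 UMIs in 14 WT barcodes, of which 122 lay in 1 barcode, too few to check the labels. The 47 members summed to 57100 UMIs (3589 CPM, UMIs of the gene scaled to a common library total) in the mutant and 55538 UMIs (2484 CPM) in WT. Clustered cells were named by their markers, and 57.2% of mutant and 53.5% of WT cells, with medians of 750 and 691 UMIs, stayed outside the classes used below. In the classes named by markers at least 6 listed markers were raised in each library, except in the B-like class, which rests on 3 of 7 (*cd79a*, *pax5* and *igic1s1*). The *gh1*-rich cluster did not reach the number of markers asked for and is the deeper hormone cluster with the highest *gh1* level, with somatotrope markers summing to 152039 CPM in the mutant and 310430 CPM in WT. *ighv1-4* and *cd22* were at 0 in the B-like cells of both libraries.

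More chemokine genes and receptors were highest in leukocytes than in any other lineage, while stromal, endothelial and glial cells held a small set of abundant ligands. Of 31 members with at least 20 UMIs in each library, 19 had their highest level in a leukocyte class in both libraries (percent_called over all genes 23.8%), 4 in the mesenchymal-like class (3.42%), 2 in the endothelial-like class (2.91%), 2 in glia (9.64%), 1 in a hormone cluster (21.9%) and 0 in the epithelial-like class (2.1%). All 7 receptors tested were highest in leukocytes, whereas none of the 3 atypical receptors was. For *ccr10* the top class was not set apart from the second in either library. Hormone cells held 40.5% of its mutant and 50% of its WT UMIs, against 43.2% and 21.1% in leukocytes. The same single class was highest in both libraries for 21 of 31 members (44.9% over all genes). Red blood cell-like cells, which should not make these proteins, were taken as the level of free RNA in the droplets. Their members' levels reached 12.8 CPM in the mutant and 23.4 CPM in WT, both for *cxcl18b*. Red blood cell-like cells had median depths of 9291 UMIs in the mutant and 6372 UMIs in WT. Their level need not bound the free RNA in shallower classes, such as WT epithelial-like cells (1336 UMIs) and WT pituicyte-like glia (1308 UMIs).

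**Figure D1:**
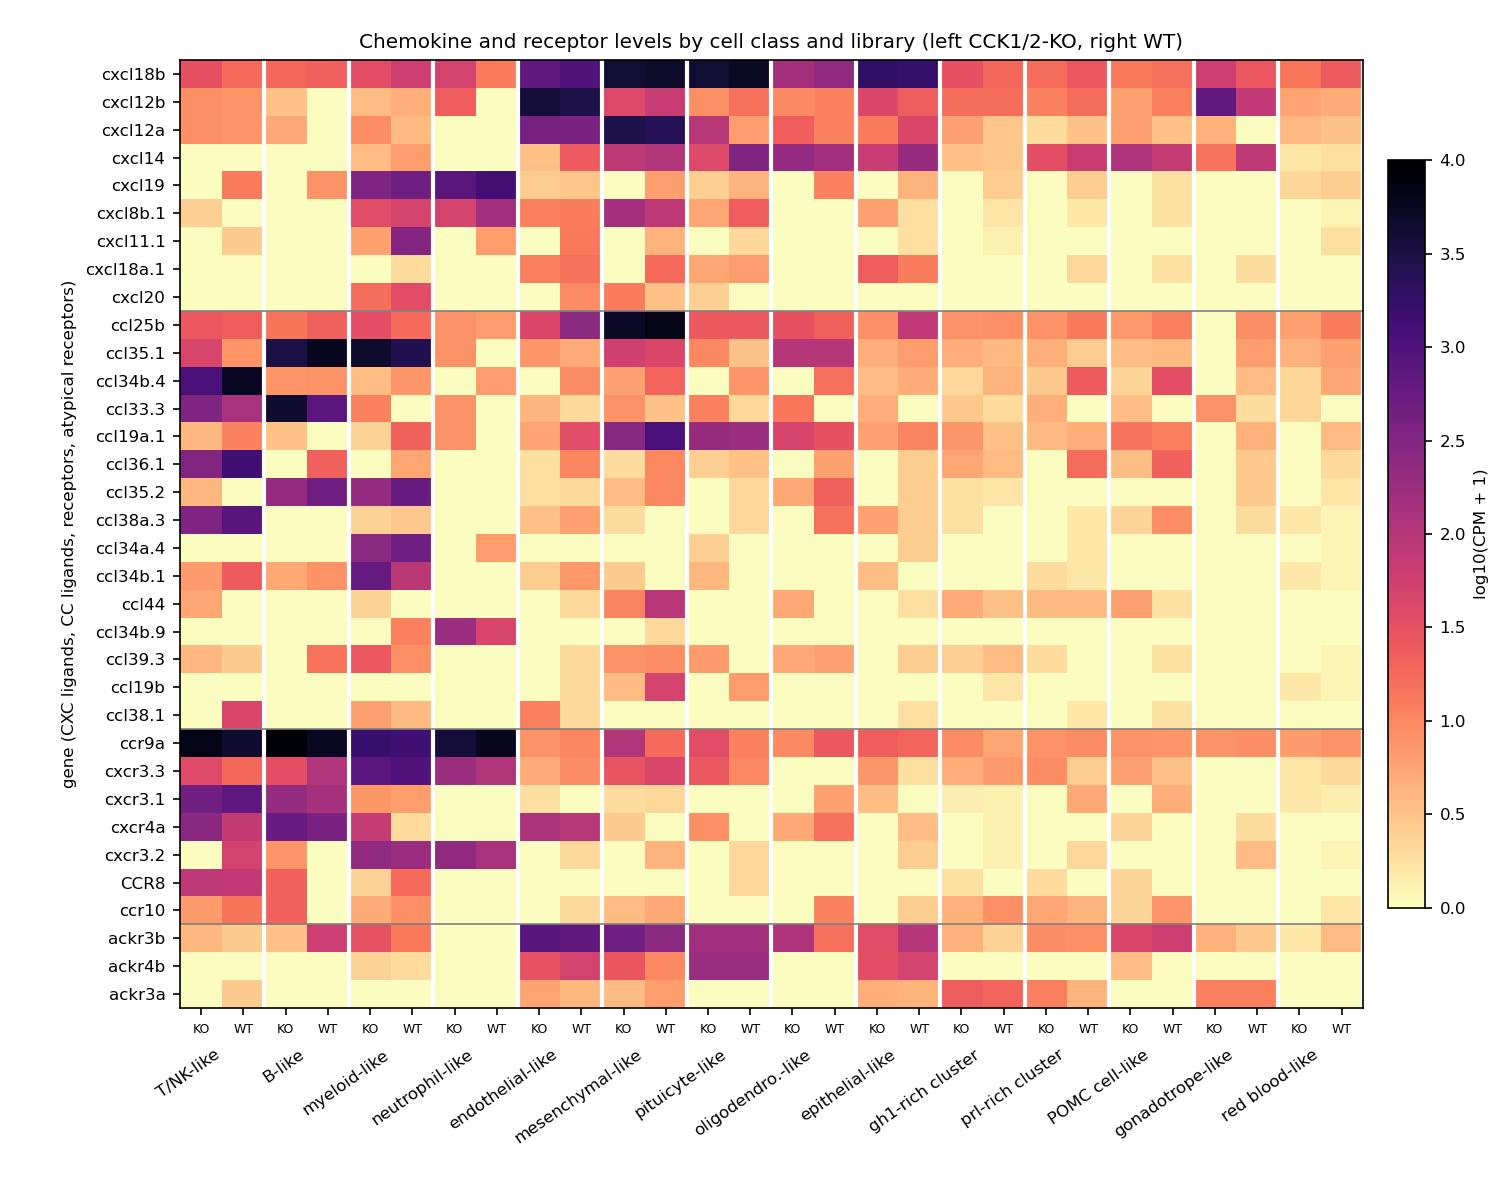
Levels of the 34 described members in 14 cell classes, as log10(CPM + 1), with the mutant left and WT right in each class. The dark cells show *ccr9a* in the 4 leukocyte classes, *ccl25b* and *cxcl12a* in mesenchymal-like cells, *cxcl12b* in endothelial-like cells and *cxcl18b* in mesenchymal-like cells and pituicyte-like glia.

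The CXC ligands were led by *cxcl18b*, which attracts neutrophils in zebrafish larvae. In mesenchymal-like cells, a class marked by collagen genes, its level was 4117 CPM in the mutant and 4814 CPM in WT. Pituicyte-like glia, the support cells of the neural lobe, held 4100 CPM in the mutant and 5096 CPM in WT. These were near-equal peaks, and neither library set the top class clearly apart from the second.

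In epithelial-like cells *cxcl18b* stood at 1975 CPM in the mutant and 1775 CPM in WT. Endothelial-like cells had 678 CPM in the mutant and 948 CPM in WT. Detection was broad: 86.0% of mutant and 89.3% of WT mesenchymal-like cells held a *cxcl18b* UMI (median depth 4730 and 6663 UMIs), against 11.3% and 14.6% of red blood cell-like cells (median depth 9291 and 6372 UMIs). With each cell thinned to 1000 UMIs, the expected shares were 76.8% and 77.7% in mesenchymal-like cells and 1.87% and 2.19% in red blood cell-like cells. In none of these 4 classes did the libraries differ by 2-fold.

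The paired genes for Cxcl12, the ligand that retains and guides Cxcr4-bearing cells, divided between stroma and vessels. Mesenchymal-like cells held 2893 CPM of *cxcl12a* in the mutant and 2404 CPM in WT, which was 79.9% and 74.0% of that gene's UMIs. Endothelial-like cells held 3726 CPM of *cxcl12b* in the mutant and 3035 CPM in WT, or 91.7% and 77.0% of its UMIs. Each gene was thus highest in a different class in both libraries.

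The division was partial. Endothelial-like cells also had 409 CPM of *cxcl12a* in the mutant and 389 CPM in WT. Within single endothelial-like cells, both genes were detected together in 2 of 160 mutant and 8 of 161 WT cells, while *cxcl12b* alone was detected in 66 and 67 cells and *cxcl12a* alone in 22 and 16. Detection depends on depth, and the median depth of cells with neither gene was 2241 UMIs in the mutant and 2873 UMIs in WT.

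Gonadotrope-like cells, which make the gonadotropins, came next for *cxcl12b*, with 661 CPM in the mutant and 75.5 CPM in WT. In WT this was near the 68.1 CPM of mesenchymal-like cells. The log2 ratio of mutant over WT was 3.13 (2.76 to 3.51), and it was 3.08 without the cell with most UMIs in each library. At least 1 UMI was found in 15 of 20 mutant cells and 20 of 109 WT cells, with medians of 11 and 2 UMIs among these cells. The 5 mutant cells without one had a median depth of 743 UMIs, and 1 of them held 19367 UMIs. Thinned to 1000 UMIs, the expected shares were 48.2% in the mutant and 3.97% in WT, against 0.677% and 0.303% in red blood cell-like cells. The 16 endothelial markers summed to 13.7 CPM in mutant and 10.5 CPM in WT gonadotrope-like cells, against 4003 and 4090 CPM in endothelial-like cells. In endothelial-like cells themselves the *cxcl12b* log2 ratio was 0.30. The gonadotrope-like class is marked by both *lhb* and *fshb*, and the study reports fewer cells producing follicle-stimulating hormone in this mutant. The part of a different mix of *lhb* and *fshb* cells in the *cxcl12b* ratio was not tested. Members past 2-fold in gonadotrope-like cells numbered 2 higher and 1 lower of 3 tested (percent_called 11.4% higher and 19% lower), of which *cxcl18b*, at a log2 ratio of 1.19, was at -0.56 without the top cells, and the mutant side rests on 20 cells.

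Pituicyte-like glia and epithelial-like cells differed in opposite directions for *cxcl12a*. The glia held 92.5 CPM in the mutant and 5.59 CPM in WT (log2 ratio 4.05, 2.75 to 5.72), from 12 of 95 and 4 of 144 cells, with 28 of the 62 mutant UMIs in 1 cell. Epithelial-like cells held 11.3 CPM in the mutant and 43.7 CPM in WT (log2 ratio -1.95, -3.15 to -0.92). In the glia, endothelial markers summed to 455 CPM in the mutant and 151 CPM in WT, and mesenchymal markers to 579 and 474 CPM. Their part in the *cxcl12a* difference was not tested. Members past 2-fold numbered 3 higher and 2 lower of 10 in pituicyte-like glia (percent_called 8.89% and 12.7%) and 1 higher and 4 lower of 9 in epithelial-like cells (9.14% and 8.45%).

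Another CXC ligand, *cxcl14*, an old and strongly conserved chemokine whose receptor is still debated, was spread over hormone cells, glia, epithelium and stroma. Mesenchymal-like cells held 24.0% of its UMIs in the mutant and 9.16% in WT, mostly in 1 of their clusters, at 424 CPM in the mutant and 404 CPM in WT. Oligodendrocyte-like glia had 209 CPM in the mutant and 149 CPM in WT, and POMC cell-like cells, which make the precursor of ACTH and MSH, 114 CPM in the mutant and 70.3 CPM in WT. In pituicyte-like glia it was lower in the mutant, at 38.8 CPM in the mutant against 350 CPM in WT (log2 ratio -3.17, -3.81 to -2.60). A UMI was found in 13 of 95 mutant and 54 of 144 WT glia, and the thinned shares were 5.27% and 21.9%, against 0.0376% and 0.129% in red blood cell-like cells.

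The same direction held for *cxcl14* in epithelial-like cells (68.1 CPM in the mutant and 191 CPM in WT, log2 ratio -1.49) and gonadotrope-like cells (13.7 CPM in the mutant and 80.8 CPM in WT, log2 ratio -2.56). In the prl-rich cluster it had 32.9 CPM in the mutant and 64.0 CPM in WT, within 2-fold (log2 ratio -0.96, and -1.32 without the top cells). The gonadotrope-like value rests on 4 mutant UMIs, 3 of them in 1 cell. The difference therefore did not extend to every class that made the gene. Epithelial-like cells were deeper in the mutant, with medians of 4267 and 1336 UMIs, and 36 of the 164 WT cells came from a cluster with no mutant cell.

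Myeloid-like cells were named by a joint list of macrophage and microglia markers, and these cell types were not told apart. *cxcl19* reached 753 CPM in mutant and 1315 CPM in WT neutrophil-like cells. In WT 196 of its 231 UMIs lay in 1 cell, and without the top cells the log2 ratio moved to 1.29 from -0.80. Myeloid-like cells had 351 CPM of it in the mutant and 480 CPM in WT.

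In myeloid-like cells *cxcl11.1*, of the Cxcl11 group of Cxcr3 ligands, was lower in the mutant. It stood at 5.18 CPM in the mutant and 296 CPM in WT (log2 ratio -5.84, -7.72 to -4.47). A UMI was found in 2 of 89 mutant cells, each with 2 UMIs, and in 24 of 98 WT cells, with a maximum of 99 UMIs. Thinned to 1000 UMIs the expected shares were 0.341% and 11.9%, against 0% and 0.0531% in red blood cell-like cells. Its neighbour in the genome, *cxcl20*, had 12 UMIs in the mutant and 36 in WT there (log2 ratio -1.10, -2.17 to -0.12, and -2.73 without the top cells). Of 17 members tested in myeloid-like cells, 4 were at least 2-fold higher and 4 lower in the mutant (percent_called 9.04% and 18.4%).

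*Cxcl8b.1*, of the Cxcl8 group that attracts neutrophils, was at 147 CPM in mutant and 80.2 CPM in WT mesenchymal-like cells and at 49.3 and 148 CPM in neutrophil-like cells, the last from 7 and 26 UMIs. Its highest class therefore differed between the libraries. Without the top cells its log2 ratio was 1.05 rather than 0.88 in mesenchymal-like cells and -0.69 rather than -1.59 in neutrophil-like cells, so that each call changed. In neutrophil-like cells 1 of 6 members tested was higher and 1 lower (percent_called 12% and 13.1%). *cxcl18a.1* was low, at 22.7 CPM in mutant and 11.3 CPM in WT epithelial-like cells.

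**Figure D2:**
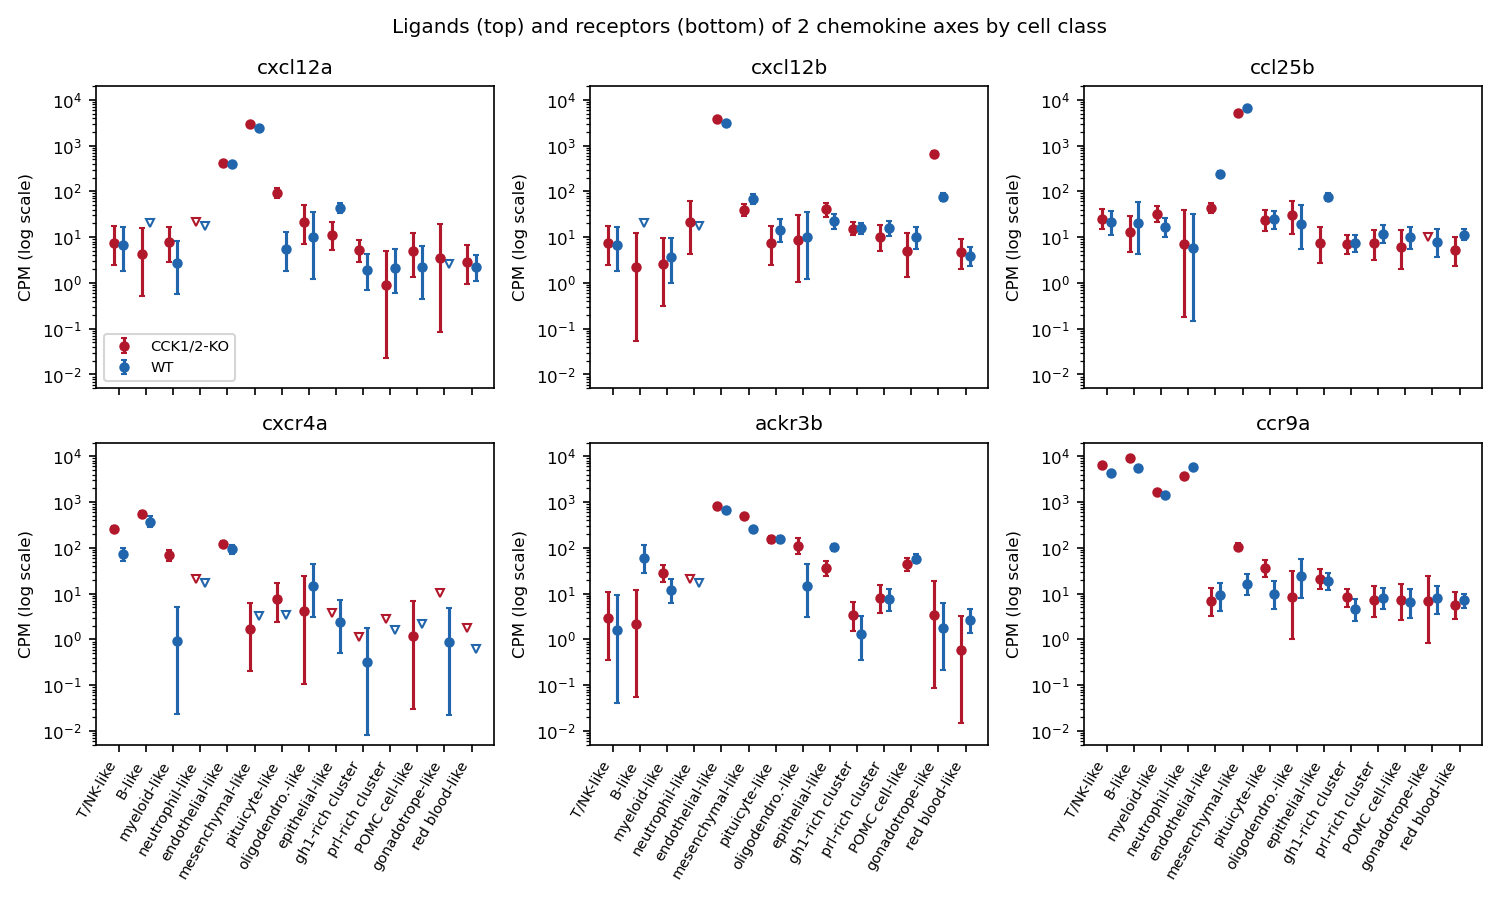
CPM (log scale) of 3 ligands in the top row and 3 receptors in the bottom row by cell class, mutant left of WT, with exact 95% intervals for counting error and open triangles at 3 counts where no UMI was found. The *cxcl12b* panel shows 661 CPM in mutant and 75.5 CPM in WT gonadotrope-like cells, and the *ccr9a* panel shows the 4 leukocyte classes above 1000 CPM in both libraries.

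Among the CC ligands, *ccl25b* was nearly confined to the stroma. Mesenchymal-like cells held 5214 CPM in the mutant and 6597 CPM in WT (log2 ratio -0.34), equal to 92.5% and 88.8% of its UMIs. Ccl25 guides developing T cells to the thymus through Ccr9. A UMI was found in 98 of 193 mutant and 63 of 112 WT cells, with thinned shares of 42.9% and 46.0% against 0.543% and 1.29% in red blood cell-like cells.

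The mesenchymal-like class was made of 4 clusters, of which the largest held 125 of 193 mutant and 69 of 112 WT cells. In that cluster *ccl25b* stood at 8113 CPM in the mutant and 7801 CPM in WT, and *cxcl12a* at 4317 and 3277 CPM. Both ligands were found in the same cell in 60 mutant and 48 WT mesenchymal-like cells. A cluster of 12 *COL10A1*-rich cells came from the mutant alone. Another, of 35 mutant and 24 WT cells, had *myod1* and *musk* among its leading genes, so the class is not of 1 cell type. That cluster held *cxcl18b* at 8343 CPM in the mutant and 7005 CPM in WT, and most of the *cxcl14* UMIs of the class.

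Outside the stroma, endothelial-like cells had 43.8 CPM of *ccl25b* in the mutant and 245 CPM in WT. In WT 214 of the 241 UMIs were in 1 cell, and without the top cells the log2 ratio was 0.15 rather than -2.48. Members past 2-fold in endothelial-like cells numbered 0 higher and 3 lower of 11 tested (percent_called 6.24% and 9.54%).

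*Ccl19a.1*, of the Ccl19 group that binds Ccr7 and draws lymphocytes and dendritic cells into lymphoid tissue in mammals, was also stromal and glial. It had 266 CPM in mutant and 1130 CPM in WT mesenchymal-like cells (log2 ratio -2.09). One WT cell carried 546 of 1029 UMIs, and without the top cells the log2 ratio was -1.27. In pituicyte-like glia the levels were 197 CPM in the mutant and 172 CPM in WT, within 2-fold. *ccl19b* and *ccl44* were lower in mutant mesenchymal-like cells as well, with 3 against 44 UMIs and 11 against 81 UMIs, and 33 and 65 of these WT UMIs lay in 1 cell each. Of 15 members tested in mesenchymal-like cells, 2 were higher and 4 lower in the mutant (percent_called 9.54% and 14.5%), and the summed myeloid markers there were 1448 CPM in the mutant and 3831 CPM in WT. Their part in these differences was not tested.

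Of the CC ligands called in T/NK-like cells, 4 were lower and 2 higher in the mutant (12.7% and 11.3% of all genes). *ccl34b.4* had 1139 CPM in the mutant and 5466 CPM in WT (log2 ratio -2.26, -2.38 to -2.15). *ccl36.1* had 308 CPM in the mutant and 1395 CPM in WT (log2 ratio -2.18), and *ccl38a.3* had 328 CPM in the mutant and 824 CPM in WT (log2 ratio -1.33). Leaving out the top cells changed none of these by more than 0.1 on the log2 scale.

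More cells as well as more UMIs per cell stood behind the higher WT level of *ccl34b.4*. It was detected in 58 of 156 mutant and 68 of 119 WT cells, with medians of 8 and 18.5 UMIs among these cells and thinned shares of 31.1% and 50.5% (0.108% and 0.315% in red blood cell-like cells). *ccl38.1* had 0 UMIs in mutant and 26 in WT T/NK-like cells, 11 of them in 1 cell. With the 0 taken as 3 it was 9.61-fold lower in the mutant. Of 14 members tested in this class, 4 were higher and 5 lower in the mutant (percent_called 11.3% and 12.7%). The somatotrope markers summed to 719 CPM in mutant and 37024 CPM in WT T/NK-like cells, and with totals free of hormone, globin and mitochondrial genes the log2 ratio of *ccl34b.4* was -2.33. *ccl34b.4* and *ccl36.1* were also lower in mutant POMC cell-like cells, at 1 against 44 UMIs and 2 against 27 UMIs (log2 ratios -4.72 and -3.01).

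In B-like cells *ccl33.3* differed most. It had 4487 CPM in the mutant and 777 CPM in WT (log2 ratio 2.53, 2.26 to 2.81), from 24 of 101 and 5 of 26 cells. The thinned shares were 21.7% and 16.2%, so that the difference lay mostly in UMIs per positive cell, with medians of 68.5 and 17. T/NK-like cells held 341 CPM in the mutant and 128 CPM in WT (log2 ratio 1.41), and they also had more *ccl35.1* in the mutant, at 31 UMIs in the mutant and 4 in WT (log2 ratio 2.80, 1.30 to 4.77). In B-like cells 1 of 7 members tested was higher and 2 lower (percent_called 18.4% and 9.57%), and the WT side rests on 26 cells.

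*ccl35.1* was shared by myeloid-like and B-like cells. Myeloid-like cells had 4686 CPM in the mutant and 2678 CPM in WT, and B-like cells had 3251 CPM in the mutant and 5690 CPM in WT. The class with the higher level was thus myeloid-like in the mutant and B-like in WT, with both ratios inside 2-fold. Myeloid markers summed to 11925 CPM in mutant and 10195 CPM in WT B-like cells, against 2377 and 2610 CPM for the B-like markers, and their part in the B-like *ccl35.1* level was not tested. Its relative *ccl35.2* was at 199 CPM in mutant and 542 CPM in WT myeloid-like cells (log2 ratio -1.44) and at 204 and 470 CPM in B-like cells, where 38 of 69 WT UMIs lay in 1 cell and the log2 ratio was -0.23 without the top cells, against -1.20 with them.

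Other CC ligands of myeloid-like cells went both ways. *ccl34b.1* was at 614 CPM in the mutant and 86.7 CPM in WT (log2 ratio 2.82, 2.50 to 3.16), detected in 25 of 89 and 10 of 98 cells, and its ratio was 3.50 without the top cells. *ccl34a.4* was at 247 CPM in the mutant and 473 CPM in WT, a log2 ratio of -0.94, and of -1.38 without the top cells. *ccl39.3* had 19 UMIs in the mutant and 8 in WT. *ccl34b.9* was found in neutrophil-like cells, with 26 UMIs in the mutant, 22 of them in 1 cell, and 8 in WT. Its log2 ratio of 2.01 was 0.72 without the top cells.

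**Figure D3:**
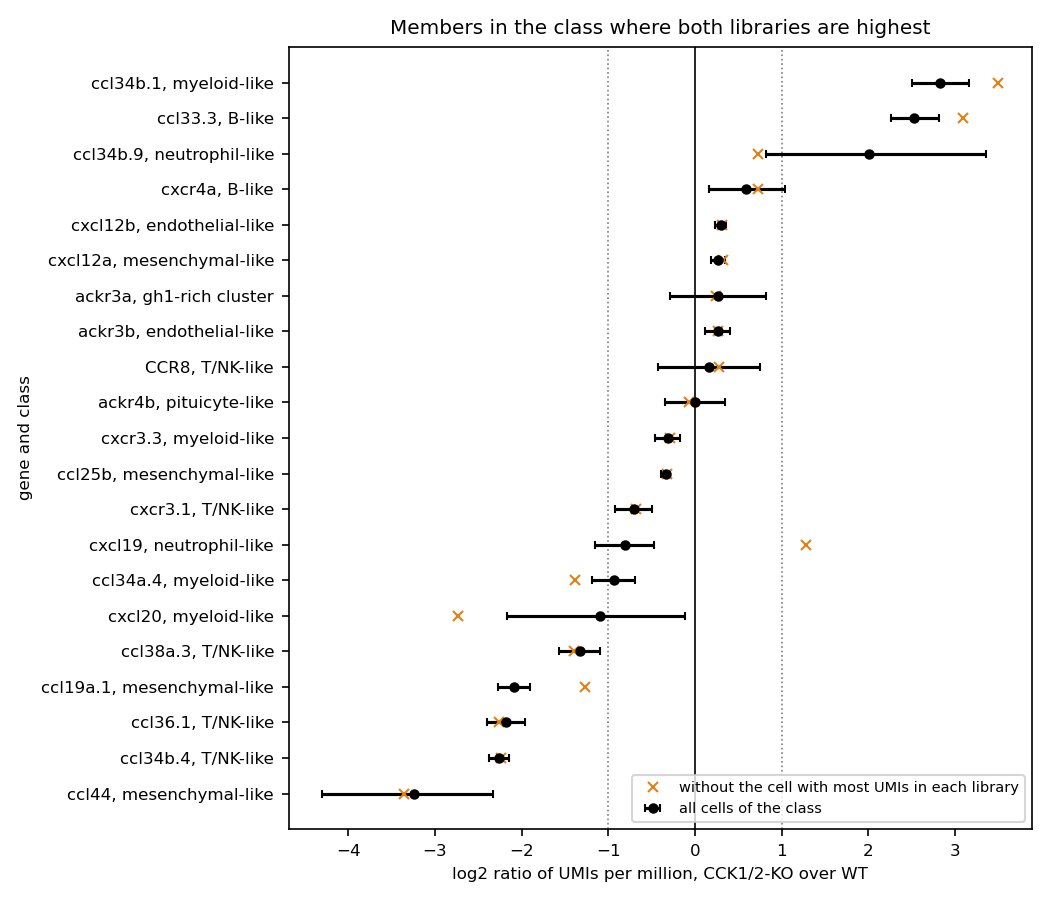
Log2 ratio of mutant over WT for the 21 members whose highest class is the same in both libraries, in that class, with exact 95% intervals for counting error (points) and the ratio without the cell with most UMIs in each library (crosses). Dotted lines mark 2-fold. The ratio ran from -3.24 for *ccl44* in mesenchymal-like cells to 2.82 for *ccl34b.1* in myeloid-like cells, and that of *cxcl19* moved from -0.80 to 1.29 without the top cells.

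The most abundant receptor was *ccr9a*, the receptor for Ccl25, in all 4 leukocyte classes. B-like cells had 9037 CPM in the mutant and 5513 CPM in WT, and T/NK-like cells 6559 CPM in the mutant and 4411 CPM in WT. Neutrophil-like cells had 3744 CPM in the mutant and 5739 CPM in WT. Myeloid-like cells had 1632 CPM in the mutant and 1405 CPM in WT. None of these 4 pairs differed by 2-fold, and red blood cell-like cells stood at 5.80 CPM in the mutant and 7.13 CPM in WT.

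Most lymphoid cells carried *ccr9a*: 144 of 156 mutant and 97 of 119 WT T/NK-like cells, and 100 of 101 mutant and 25 of 26 WT B-like cells. Thinned to 1000 UMIs the T/NK-like shares were 91.9% and 77.5%, against 0.477% and 0.519% in red blood cell-like cells. Over all kept cells *ccr9a* was at 717 CPM in the mutant and 311 CPM in WT (log2 ratio 1.21). The lymphoid classes were also larger shares of the mutant cells, at 4.52% against 2.45% for T/NK-like and 2.93% against 0.535% for B-like cells. In mesenchymal-like cells, 105 of the 124 mutant *ccr9a* UMIs came from 1 cell.

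*Cxcr4a*, a zebrafish copy of the Cxcl12 receptor Cxcr4, was found in lymphoid and endothelial-like cells. B-like cells had 563 CPM in the mutant and 375 CPM in WT, and endothelial-like cells 120 CPM in the mutant and 93.5 CPM in WT. T/NK-like cells had 261 CPM in the mutant and 72.4 CPM in WT (log2 ratio 1.85, 1.37 to 2.36), with a UMI in 49 of 156 and 15 of 119 cells. The thinned shares were 17.6% in the mutant and 5.24% in WT. In myeloid-like cells *cxcr4a* had 54 UMIs in 9 of 89 mutant cells and 1 UMI in 98 WT cells (log2 ratio 6.24, 3.71 to 11.57). Red blood cell-like cells held none, which allows up to 1.74 CPM in the mutant and 0.611 CPM in WT. The other zebrafish copy, *cxcr4b*, was listed with 0 UMIs in both matrices, and whether this 0 reflects expression or read assignment was not tested.

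The tandem genes *cxcr3.1*, *cxcr3.2* and *cxcr3.3*, related to the receptor for Cxcl11, were divided among leukocytes although they neighbour each other in the genome. *cxcr3.1* was highest in T/NK-like cells, with 457 CPM in the mutant and 745 CPM in WT. *cxcr3.3* was highest in myeloid-like cells, with 769 CPM in the mutant and 957 CPM in WT. *cxcr3.2* was at 232 CPM in mutant and 178 CPM in WT myeloid-like cells and at 232 and 131 CPM in neutrophil-like cells.

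In single myeloid-like cells *cxcr3.2* and *cxcr3.3* were found together in 27 of 89 mutant and 39 of 98 WT cells. T/NK-like cells had 0 UMIs of *cxcr3.2* in the mutant and 29 in WT, at least 10.7-fold lower in the mutant with the 0 taken as 3. *CCR8*, a receptor of regulatory and tissue T cells in mammals, was at 84.5 CPM in mutant and 75.7 CPM in WT T/NK-like cells, within 2-fold. *ccr10* had 37 UMIs in the mutant and 76 in WT over all kept cells and stood above 20 CPM in no class.

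The 3 described atypical receptors were highest outside the leukocytes. *ackr3b*, which takes up Cxcl12, had 809 CPM in mutant and 675 CPM in WT endothelial-like cells, in 99 of 160 and 96 of 161 cells. Mesenchymal-like cells had 485 CPM in the mutant and 253 CPM in WT (log2 ratio 0.94, 0.72 to 1.17, and 1.06 without the top cells). Its level therefore followed the same pair of classes as the Cxcl12 genes.

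Among other cells *ackr3b* was at 154 CPM in both mutant and WT pituicyte-like glia, and at 43.7 CPM in mutant and 58.0 CPM in WT POMC cell-like cells. Epithelial-like cells had 36.6 CPM in the mutant and 102 CPM in WT (log2 ratio -1.48). Oligodendrocyte-like glia had 26 UMIs in the mutant and 3 in WT (log2 ratio 2.90, 1.19 to 5.26), the 1 member higher there of 4 tested, with 0 lower (percent_called 12.7% and 8.66%). Single endothelial-like cells held *ackr3b* with *cxcl12b* in 42 mutant and 46 WT cells, and *ackr3b* with *cxcr4a* in 27 and 24 cells. Cells with neither *ackr3b* nor *cxcr4a* were shallower, with medians of 1624.5 and 1824 UMIs, against 11199 and 10004 UMIs in cells with both.

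*Ackr4b*, related to the mammalian receptor that removes Ccl19, Ccl21 and Ccl25, was highest in pituicyte-like glia. Its level was 183 CPM in both libraries, in 32 of 95 mutant and 48 of 144 WT glia. Endothelial-like cells had 28.9 CPM in the mutant and 51.8 CPM in WT. *ackr3a* was the member that was highest in a hormone cluster, the *gh1*-rich one, with 22.1 CPM in the mutant and 18.5 CPM in WT, where red blood cell-like cells had no UMI. Neither library set this cluster apart from the second class. That was the *prl*-rich cluster in the mutant (11.0 CPM) and gonadotrope-like cells in WT (10.5 CPM).

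In hormone cells a few members stood above the level of red blood cell-like cells. These were *cxcl12b* and *ackr3a* in the *gh1*-rich cluster, *cxcl14* and *ackr3a* in the *prl*-rich cluster, *ackr3b*, *ccl19a.1* and *cxcl14* in POMC cell-like cells, and *cxcl12b* and *cxcl14* in gonadotrope-like cells, in both libraries. Myeloid-like and mesenchymal-like cells had 13 such members each, T/NK-like cells 11 and endothelial-like cells 9. The share of all genes above that level in each class was not computed. Whether these counts are few or many for a class was therefore not tested. POMC cell-like cells also had 22 UMIs of *ccl27b* in 7 of 67 mutant cells, 8 of them in 1 cell, and 0 in 142 WT cells. With the 0 taken as 3 it was 12.3-fold higher in the mutant. Members past 2-fold numbered 2 higher and 1 lower of 10 in the *gh1*-rich cluster (percent_called 20.4% and 4.97%), 0 higher and 2 lower of 8 in the *prl*-rich cluster (8.42% and 7.47%) and 1 higher and 2 lower of 7 in POMC cell-like cells (7.86% and 8.52%). Calls were taken to hold where the interval left out 0 and the ratio stayed past 2-fold without the top cells. In the *gh1*-rich cluster 1 higher and 0 lower held. In POMC cell-like cells 1 higher and 2 lower held. In the *prl*-rich cluster 0 held: 41 of 42 WT UMIs of *ccl34b.4* lay in 1 cell, and 24 of 29 of *ccl36.1*.

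**Figure D4:**
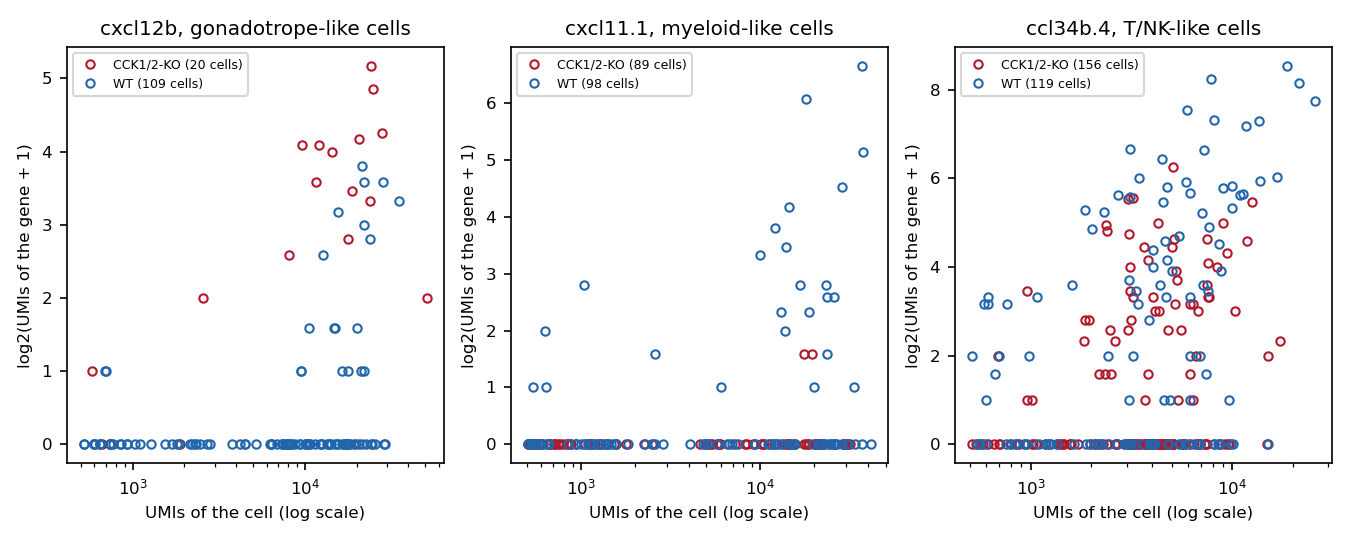
Each point is 1 cell, with its UMIs of the gene as log2(UMIs + 1) against its total UMIs (log scale), for *cxcl12b* in gonadotrope-like, *cxcl11.1* in myeloid-like and *ccl34b.4* in T/NK-like cells, mutant in red and WT in blue. UMIs were found in 15 of 20 mutant and 20 of 109 WT, 2 of 89 mutant and 24 of 98 WT, and 58 of 156 mutant and 68 of 119 WT cells.

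Over all kept cells, 7 of 38 members tested were at least 2-fold higher in the mutant (percent_called 10%) and 4 were lower (3.67%). Those higher were *ccr9a*, *cxcl12a*, *ccl33.3*, *cxcr4a*, *ccl34b.1*, *ccl39.3* and *ccl27b*, and those lower *ccl34b.4*, *ccl36.1*, *cxcl11.1* and *ccl19b*. With totals free of hormone, globin and mitochondrial genes, *cxcl12a* was inside 2-fold, at a log2 ratio of 0.84, and *ccr9a* was at 1.03. The members' median log2 ratio was 0.18 and that of all genes 0.24. Within classes 127 pairs of member and class were tested, of which 22 were higher (10.5%) and 33 lower (11.4%). Red blood cell-like cells, taken above as the level of free RNA, are among these classes. There 0 were higher and 2 lower of 6 tested (percent_called 3.13% and 22.6%). Of the 127 pairs, 15 higher and 24 lower ones had an interval that left out 0 and stayed past 2-fold without the top cells.

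Compared with the remaining cells of its library, most classes had members at least 4-fold higher in both libraries. Of 38 members tested there were 10 in myeloid-like (percent_called 4.85%), 7 in T/NK-like (4.17%), 6 in B-like (2.43%) and 4 in neutrophil-like cells (3.5%). Mesenchymal-like cells had 6 (4.07%), endothelial-like cells 4 (3.75%), pituicyte-like glia 2 (3.15%), epithelial-like cells 1 (2.55%) and the *gh1*-rich cluster 1 (1.71%). There were 0 in oligodendrocyte-like glia (3.2%), the *prl*-rich cluster (2.88%), POMC cell-like (4.27%), gonadotrope-like (1.9%) and red blood cell-like cells (0.273%).

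The 13 members with fewer than 50 UMIs included *ccr7*, the Ccl19 receptor, with 11 UMIs in the mutant and 5 in WT, all in leukocyte classes. *CCR9*, a second Ccr9 listing, had 16 UMIs in the mutant and 0 in WT. *cxcl11.8* had 0 UMIs in the mutant and 15 in WT, the 15 again in leukocytes. The other 10 had 10 to 39 UMIs over the kept cells of both libraries, except *CCR6* with 7 and *cxcl8b.3* with 8. Of the 14 symbols under the minimum, 9 had no UMI.

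Genes that act with the chemokine system were taken from 5 lists, which were chosen with earlier results of these data known. Of 20 transcription factors upstream of chemokines, 16 were tested in T/NK-like cells, where 6 were higher and 0 lower in the mutant (11.3% and 12.7% of all genes). Their median log2 ratio was 0.56, against -0.03 over all genes. *fosab* was at 323 CPM in the mutant and 83.9 CPM in WT, and *nfkb1*, an NF-kB subunit, at 265 CPM in the mutant and 77.3 CPM in WT. *cebpb*, *jun*, *junba* and *junbb* had log2 ratios of 1.53, 1.15, 1.45 and 1.55. In B-like cells 1 of 16 factors was higher and 3 were lower (18.4% and 9.57% of all genes). Their median log2 ratio there was -0.08, against 0.12 over all genes.

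In myeloid-like cells 4 of 18 factors were higher and 3 lower (9.04% and 18.4% of all genes). The lower ones were *stat1b* at 7.77 CPM in the mutant and 131 CPM in WT (log2 ratio -4.08), *irf8* at 89.3 and 354 CPM (-1.99) and *irf1b* at 114 and 277 CPM (-1.28). *fosab* was higher, at 946 CPM in the mutant and 58.1 CPM in WT, with a log2 ratio of 4.03, and 2.74 without the top cells. Mesenchymal-like cells, whose myeloid marker sums are given above, had 5 of 17 factors lower and 0 higher (14.5% and 9.54% of all genes). The lower ones were *relb*, *rel*, *irf1b*, *irf8* and *stat1b*.

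Of 12 cytokines beside chemokines, *ifng1*, interferon gamma, was lower in T/NK-like cells, at 60.8 CPM in the mutant and 357 CPM in WT (log2 ratio -2.55, and -1.70 without the top cells). It was the 1 of 6 tested there past 2-fold, where 12.7% of all genes were lower. *tnfb* had 1 UMI in mutant and 61 UMIs in WT B-like cells, the 1 lower of 2 tested there (9.57% of all genes). The WT side of that class rests on 26 cells. Of 7 chemokine-cleaving proteases, *mmp9* and *ctsk* were lower in mutant myeloid-like cells (log2 ratios -4.22 and -2.11), the 2 lower of 5 tested (18.4% of all genes), and 2 were higher (9.04%), among them *mmp14b* (1.19). Without the top cells *mmp9* was at -2.68. Among 18 genes of G protein coupling and desensitisation in the files, *gng2* and *grk6* were higher in T/NK-like cells (log2 ratios 1.73 and 1.17) of 11 tested, and 0 were lower (11.3% and 12.7% of all genes). Of 15 leukocyte migration genes, 1 of 14 tested was past 2-fold in T/NK-like cells (*rhogb*, log2 ratio -1.01, and -0.85 without the top cells) and 0 of 14 in myeloid-like cells.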

How the data were processed

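Droplet single-cell RNA-seq of male zebrafish pituitary was deposited as 1 gene-by-barcode matrix per library. Per the labels and methods the authors aligned and counted with Cell Ranger on GRCz11 and went on in Seurat, and the deposited values are UMI counts without normalization. The authors' cell names were not used.

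Cells with at least 200 genes and at most 20% mitochondrial UMIs were kept, which removed 192 mutant and 154 WT barcodes for genes and 4 and 12 for mitochondrial UMIs. Scrublet marked 0 doublets in each library, so the cells with the highest scores, 107 and 212, were left out instead (0.8% for each 1000 barcodes). Counts were scaled to 10000, and 2000 variable genes, 30 principal components and 20 neighbours went into Leiden clustering at resolution 1 (scanpy 1.11.5, leidenalg 0.10.2, igraph 0.11.9, scikit-learn 1.9.0, anndata 0.12.19, scipy 1.17.1, matplotlib 3.10.9, pandas 2.3.3, numpy 2.4.6, Python 3.11.15). Hormone, cholecystokinin receptor and mitochondrial genes and the members were left out of it. This gave 26 clusters, of which 2 with markers of unlike lineages were split, giving 32. A class needed 3 markers, each in at least 10% of cells and 2-fold over the other cells. The *gh1*-rich cluster did not meet this rule and was taken as the deep hormone cluster with the highest *gh1* level among those left unnamed.

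UMIs were summed by class and library. CPM has exact Poisson intervals, ratios exact conditional intervals, shares Clopper-Pearson intervals. A ratio was called past 2-fold where the libraries together held 20 UMIs or more, and a 0 was taken as 3. Thinned shares are expectations at 1000 UMIs, leaving out shallower cells. In the text, percent_called is the share of all genes tested that passed the same rule. Every member with at least 50 UMIs was described, and genes of the 5 lists were named when past 2-fold within a class with at least 50 UMIs. The interval and ratio steps were tested on simulated data.

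The members and lists were chosen with earlier results of these data known. The cluster split, the use of a gene name table for markers, and the rules that leave shallow or conflicting clusters unnamed were set after the members' levels by cluster had been seen. Of 47 members, 41 matched the RefSeq table of GRCz12tu, used only to see which genes neighbour each other. There 18 lie in 7 groups, and reads of near-identical neighbours could be split between them.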

Additional observations from a re-analysis of the deposited data

Results flagged for a closer look

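The log2 ratio of mutant over WT for *cxcl12a* was 4.05 in pituicyte-like glia and -1.95 in epithelial-like cells. Opposite directions in these 2 classes drew attention, and the difference between them was not tested. The glial value rests on 62 mutant and 5 WT UMIs, and the epithelial value on 9 mutant and 54 WT UMIs.

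One cluster of 6 mutant and 6 WT cells, led by *spink2* genes and given no class, was used in no comparison. It held *ccl34b.9* at 958 CPM in the mutant and 737 CPM in WT, detected in all 12 cells, while red blood cell-like cells had no UMI of it.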

How the results depend on the processing

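Of 128 summary counts recomputed under other settings, 119 stayed within 1.5 times and 9 moved. Members highest in a hormone cluster in both libraries (1) were 0 with every barcode, 0 with at least 500 genes per cell, and 2 with each library clustered on its own. Members highest in endothelial-like cells (2) were 0 with at most 10% mitochondrial UMIs and 0 with each library clustered on its own. There 0 mutant and 0 WT cells, and 22 mutant and 0 WT cells, carried the endothelial-like name. With each library clustered on its own, 0 mutant cells were named gonadotrope-like or *gh1*-rich, and 0 WT cells POMC cell-like. At Leiden resolution 2 the *gh1*-rich cluster held 0 mutant and 9 WT cells. Mutant over WT ratios of these classes could not be recomputed in those settings. Members lower in the mutant over all cells (4) were 7 with at least 500 genes per cell and 7 with totals free of hormone, globin and mitochondrial genes. Asking for 50 UMIs left 8 higher (22) and 16 lower (33) pairs of member and class. Members highest in leukocytes ranged from 16 to 19. Of 246 values of single members, 212 stayed within the counting error and 34 moved. *cxcl19* in neutrophil-like cells, which was not called, changed sign without the top cells. Called ratios of *ccl25b* in endothelial-like cells and *cxcl18b* in gonadotrope-like cells also changed sign without the top cells, and fell inside 2-fold. The causes were not tested. Leaving the 2 mixed clusters unsplit, an alternative chosen after seeing the data, moved no scored value past these limits. It did change the epithelial-like, neutrophil-like and mesenchymal-like classes. Epithelial-like cells then numbered 0 in the mutant and 36 in WT, against 61 and 164 in the main setting. Neutrophil-like cells numbered 83 and 152, against 22 and 24. Mesenchymal-like cells numbered 208 and 123, against 193 and 112. The epithelial-like ratios therefore had no mutant side there, and they depend on the split. No paired analysis was possible because each group has 1 library. Depth limits the members under 50 UMIs and the classes with few cells (20 mutant gonadotrope-like and 26 WT B-like cells).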
